A study of Mus musculus with 12 samples.

Results

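The 33 genes described here make, lengthen, desaturate, store or burn fatty acids, or make cholesterol and sense it, and they were followed through the regions of changed 5-hydroxymethylcytosine (5-hmC) found in mouse dorsal root ganglia after 2 kinds of lesion. They were chosen by name, with earlier results of these data known, as the rows of 3 deposited region tables whose gene is one of the 33. The tables name 11212 genes in all. Of the 33 members, 25 carried a listed region in at least 1 table and together they held 127 regions, while Fasn, Elovl1, Elovl2, Fads1, Acsl5, Hmgcs1, Sqle and Dhcr7 carried none.

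Ganglia of lumbar levels L4, L5 and L6 were collected 24 h after injury. In the PL group the sciatic nerve, the peripheral branch of these neurons, had been lesioned, and in the DCL group the central branch had been lesioned in the dorsal columns of the spinal cord. The control group was the uninjured ganglia of the opposite side of the PL animals, so the controls too came from animals with an injury. Each group had 3 enriched libraries, each made from the pooled ganglia of 3 animals, which gives 9 libraries; 3 input libraries are not analysed here, and the labels give no strain, age or sex. Fragments with 5-hmC were tagged with a sugar and biotin, captured and sequenced. The tables list regions called as different between PL and control (12244), DCL and control (35242) and PL and DCL (22944), on the mm9 build, with a normalised read count for every library. Whole ganglia were used, so a change in the mix of cells and a change in 5-hmC per cell cannot be told apart.

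Sensory neurons keep up very long axons, and regrowth calls for new membrane, whose phospholipids and cholesterol need fatty acids and sterols. The path runs from citrate, which ATP citrate lyase splits into cytosolic acetyl-CoA, through malonyl-CoA and fatty acid synthase to palmitate, which elongases and desaturases turn into longer and unsaturated chains and acyl-CoA synthetases activate for use. The SREBP transcription factors switch these genes and those of cholesterol synthesis on when membrane sterol is low, and the Insig proteins hold SREBP back. 5-hmC is the product of TET enzymes acting on methylated cytosine, is plentiful in neurons, and in gene bodies is commonly found with active transcription. No RNA was measured in the data used here, so the values below say nothing of the expression of any gene.

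Only 2 of the 127 regions lay within 1000 bp of the start of a member gene, and both promoters are shown because the data bear on them. They are the RefSeq promoter windows of Acacb (chr5:114165268-114165567) and Fads3 (chr19:10041298-10041597), from 250 bases before to 50 after the start, both on the plus strand of GRCm38.p6 and each 300 bases long. Acacb spans 85241 bases in the mm9 tables and 104441 in GRCm38.p6, so the start used here may not be its only one. Capitals mark CG pairs, where cytosine methylation and 5-hmC mostly occur.
Acacb: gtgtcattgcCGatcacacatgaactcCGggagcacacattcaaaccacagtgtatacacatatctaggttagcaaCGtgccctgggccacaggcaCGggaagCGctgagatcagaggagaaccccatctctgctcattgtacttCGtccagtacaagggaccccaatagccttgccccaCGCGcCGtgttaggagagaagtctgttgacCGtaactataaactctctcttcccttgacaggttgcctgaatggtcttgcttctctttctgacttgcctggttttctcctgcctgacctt
Fads3: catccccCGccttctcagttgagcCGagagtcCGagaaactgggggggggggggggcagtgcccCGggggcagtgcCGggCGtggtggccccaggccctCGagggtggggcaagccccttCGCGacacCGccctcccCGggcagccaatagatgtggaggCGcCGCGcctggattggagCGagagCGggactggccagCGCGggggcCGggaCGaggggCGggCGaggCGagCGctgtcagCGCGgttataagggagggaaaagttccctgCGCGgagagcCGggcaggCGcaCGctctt
The Acacb window held 10 CG pairs and the Fads3 window 31, against a median of 7 over 32851 promoters of the same length; 56.5% of those promoters had fewer CG pairs than Acacb and 89.4% had fewer than Fads3. By the mm9 positions of the tables, the Acacb region ran from 166 bases before the start to 33 after it and so fell inside the window, while the Fads3 region ran from 477 to 278 bases before the start, just upstream of it. RefSeq promoters were found for 28 of the 33 members, 41 in all, with a median of 22 CG pairs. On either strand, the sterol regulatory element TCACNCCAC was found in 2 of the 41 (Acsl1 and Hmgcs1) and in 1.24% of all promoters, the NF-Y box CCAAT in 22 and in 37.4%, and the E box CACGTG in 5 and in 7.15%. Acacb had 1 CCAAT box and Fads3 had 2, and neither had one of the other motifs. These matches describe the letters of the windows and not bound sites.

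The total depth of the libraries is unknown, but low values fall on whole multiples of a step that is the value of 1 read. In the table of PL and control, 1 read was worth 0.907 to 1.77 in PL libraries and 0.576 to 1.05 in control libraries. In the table of DCL and control it was worth 0.658 to 3.14 in DCL libraries and 0.534 to 0.975 in control libraries. The largest value, 3.14, is that of the DCL library listed first, whose reads were thus scaled up the most. Its median over all listed regions of that table was 17 reads, against 15 and 26 in the other DCL libraries. The library listed first carried the highest DCL value in 38 of the 43 member regions that were higher after DCL. Which labelled sample it is cannot be told. In the table of PL and DCL, 1 read was worth 0.620 to 1.23 in PL libraries and 0.488 to 2.34 in DCL libraries. The tables were scaled separately, so levels are compared only within a table, and because they hold only regions chosen for a difference, the marker genes of neurons and other cells cannot show which cells the tissue held.

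After the peripheral lesion, 25 regions in 14 of the 33 members were listed against control (42.4%, where 20.2% of 21900 protein-coding genes had one). Of these, 11 were higher and 14 lower in PL, which puts the share of higher regions at 44.0%, against 50.4% of all listed regions. Acacb, Acsl6, Dgat2 and Elovl4 carried only higher regions, Acly, Acsl1, Acsl3, Elovl6, Fads2 and Insig1 only lower ones, and Cpt1a, Lpin1, Lpin2 and Scd2 both. The members were chosen with earlier results of these data known. Their share above that of all genes therefore cannot be read as an enrichment, here or in the other comparisons. Members are also long genes, with a median length of 38.7 kb against 17.1 kb for all protein-coding genes in GRCm38.p6. The part of length in the share of members with a region was not tested. In 10 of the 11 higher and 14 of the 14 lower regions, every PL library lay beyond every control library, as did 95.6% of all higher and 100% of all lower regions of the table (6066 of 6067). The median log2 ratio, PL mean over control mean without a pseudocount, was 1.23 in the higher and -1.60 in the lower regions of members, and 1.27 and -1.65 over all listed regions. For this comparison the region of each member with the smallest deposited adjusted p is given, with regions near a start or shared between tables. For the comparisons with DCL, counts are given for only some of the regions that this rule picks. Other regions given were chosen after their values were seen.

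**Figure D1:**
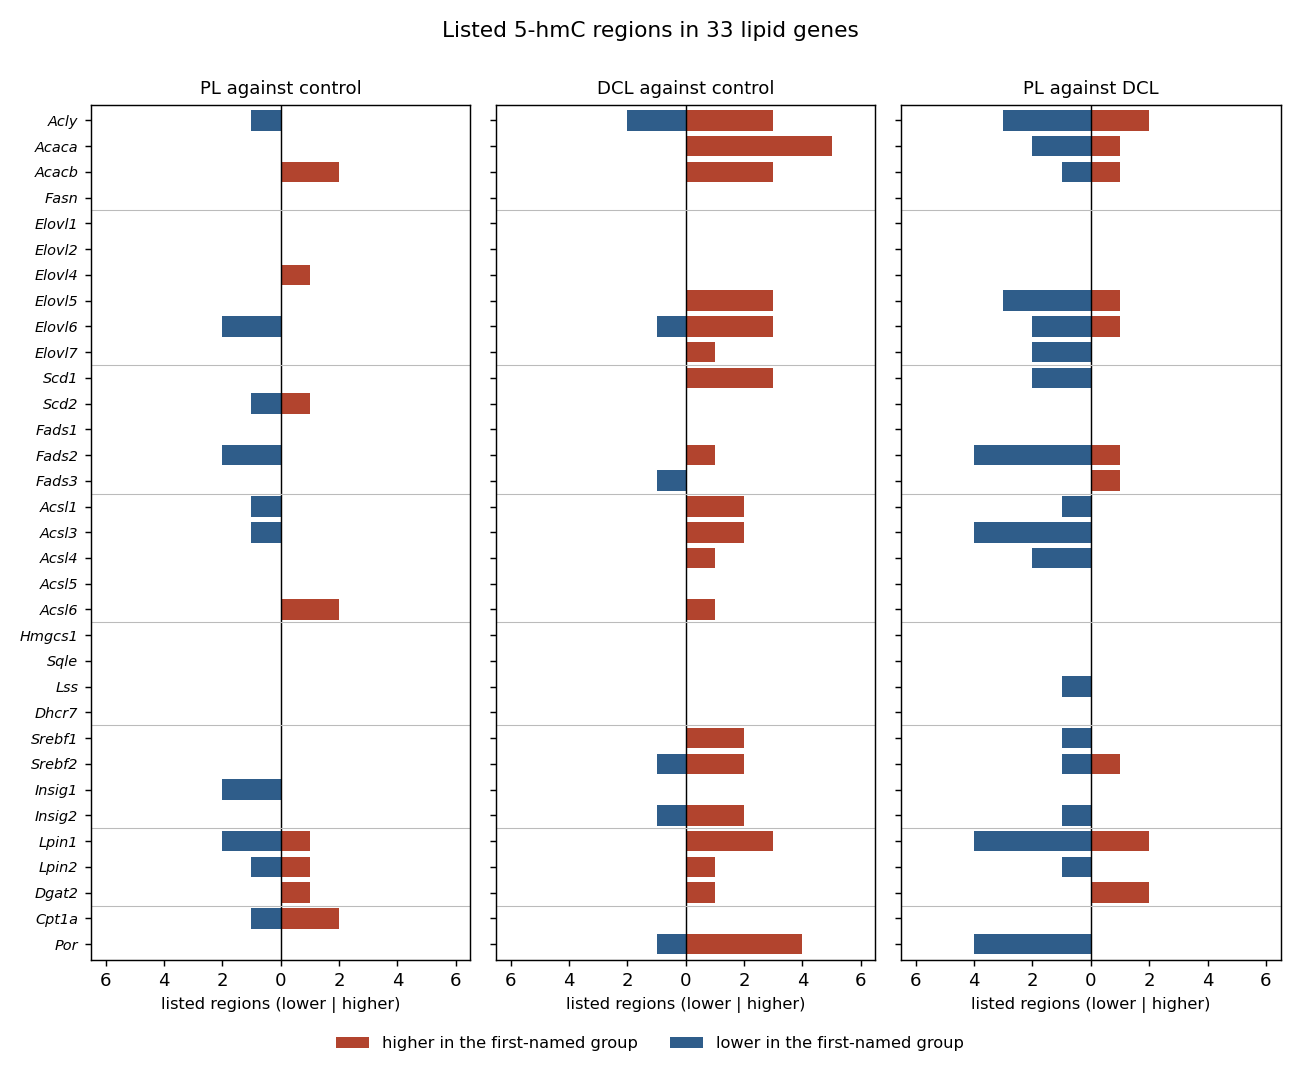
Number of listed 5-hmC regions in each of the 33 genes (rows, grouped by role), drawn to the right where the region was higher in the group named first and to the left where it was lower, for PL against control, DCL against control and PL against DCL. Of the member regions, 11 were higher and 14 lower in PL against control, 43 and 7 in DCL against control, and 13 and 39 in PL against DCL.

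At the head of the path, Acly, which makes cytosolic acetyl-CoA from citrate, had 1 region in its gene body, 30344 bp from the start (chr11:100358861-100359080). It read 6.35, 12 and 5.32 normalised counts in PL libraries, against 24.2, 19.4 and 20.2 in control libraries. Every PL library was below every control library, and the means were 7.89 ± 3.60 in PL and 21.2 ± 2.59 in control (SD, n = 3 each). Acacb, the acetyl-CoA carboxylase of the mitochondrial surface whose malonyl-CoA restrains fatty acid import, carried 2 higher regions. At its promoter (chr5:114615361-114615560) the counts were 25.4, 19.5 and 21.3 in PL libraries, against 6.31, 12.7 and 9.80 in control libraries, with no overlap and a log2 ratio of 1.20. In its gene body (chr5:114622901-114623280) they were 23.6, 58.5 and 101 in PL libraries, against 25.2, 34.7 and 17.9 in control libraries, and here the groups overlapped. Acaca, the cytosolic carboxylase, and Fasn, the synthase itself, had no listed region. The authors' deposited table gives an adjusted p of 0.0135 for the Acly region and for the Acacb promoter, and 0.0077 for the Acacb gene body.

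Among the elongases, Elovl6, which lengthens palmitate to stearate, carried 2 lower regions. The one at 103696 bp from the start (chr3:129338901-129339100) was almost without reads after PL, at 0.91, 0 and 0 normalised counts in PL libraries, against 13.7, 14.0 and 12.1 in control libraries. These are 1, 0 and 0 reads in PL libraries and 13, 21 and 21 reads in control libraries, so the PL mean rests on a single read and no fold is given. The authors' deposited table gives an adjusted p of 0.000106, the smallest of any member region after PL. The second Elovl6 region (chr3:129287001-129287260) held 8.16, 12 and 16.0 normalised counts in PL libraries, against 30.5, 27.4 and 27.1 in control libraries, again without overlap. Elovl4, which makes very long chains, had a higher region 27582 bp from its start (chr9:83672201-83672460), with 16.3, 27.0 and 19.5 in PL libraries, against 5.26, 9.35 and 10.95 in control libraries. The Elovl4 groups did not overlap, and its adjusted p of 0.0455 in the authors' deposited table was the largest of the 25 regions.

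Of the desaturases, Fads2, the first desaturase of polyunsaturated fatty acid synthesis, was lower at 2 gene body regions. The first (chr19:10166821-10167040) held 13.6, 22.5 and 12.4 normalised counts in PL libraries, against 30.5, 38.1 and 36.9 in control libraries. The second (chr19:10172761-10172980), 3123 bp from the start, held 9.07, 4.50 and 1.77 in PL libraries, against 19.99, 18.7 and 17.9 in control libraries. Neither overlapped between groups, with log2 ratios of -1.12 and -1.88. Scd2, a stearoyl-CoA desaturase of brain and nerve that makes monounsaturated chains, had a lower region 2246 bp before its start (chr19:44365781-44366060) and a higher one in its body (chr19:44372921-44373200). The upstream region held 14.5, 22.5 and 10.7 in PL libraries, against 40.0, 38.7 and 33.4 in control libraries. The gene body region held 32.6, 21.0 and 23.1 in PL libraries, against 17.9, 10.0 and 12.7 in control libraries. The 2 Scd2 regions therefore differed in opposite directions, each without overlap. Scd1, Fads1 and Fads3 had no region in this comparison.

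The acyl-CoA synthetases, which activate fatty acids by joining them to CoA, split by gene. Acsl1 had a lower region 2580 bp inside the gene, which the tables count as promoter (chr8:47578801-47579000), with 4.53, 1.5 and 7.10 normalised counts in PL libraries, against 13.7, 16.7 and 15.6 in control libraries. Acsl3 had a lower gene body region (chr1:78671641-78671860), with 0.91, 12 and 7.10 in PL libraries, against 18.9, 21.4 and 19.6 in control libraries. Acsl6, the synthetase enriched in brain, had 2 higher regions in its body. At chr11:54123901-54124100 these were 13.6, 16.5 and 17.7 in PL libraries, against 8.42, 2.67 and 5.76 in control libraries. At chr11:54168761-54168960 they were 15.4, 17.99 and 17.7 in PL libraries, against 5.26, 8.68 and 5.19 in control libraries. No PL library overlapped a control library in any of these 4 regions. The authors' deposited table gives an adjusted p of 0.00931 for Acsl1, 0.00684 for Acsl3 and 0.00858 and 0.0140 for the 2 Acsl6 regions.

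None of the 4 sterol synthesis members had a region after PL, and of the 4 sterol sensing members only Insig1, which retains SREBP in the endoplasmic reticulum, did. Its 2 regions were both lower and 2760 bp apart. At chr5:28405881-28406140 the counts were 5.44, 10.5 and 1.77 in PL libraries, against 19.99, 18.7 and 18.4 in control libraries. At chr5:28402901-28403120 they were 4.53, 9 and 3.55 in PL libraries, against 18.9, 14.0 and 20.2 in control libraries. Insig1 is a short gene of 7.25 kb, and these were the only regions listed for it in the 3 tables.

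All 3 genes of glycerolipid synthesis had regions after PL. Lpin1, a phosphatidate phosphatase that makes diacylglycerol, showed a lower, a higher and a lower region in a row near its start, with gaps of 1080 and 3500 bp. From the most downstream to the one nearest the start, the mean was 6.39 ± 1.09 in PL and 18.9 ± 1.09 in control at chr12:16589461-16589660, 31.7 ± 9.98 in PL and 13.8 ± 0.176 in control at chr12:16590741-16590980, and 15.0 ± 3.55 in PL and 37.6 ± 1.66 in control at chr12:16594481-16594700 (SD, n = 3 each). None of the 3 overlapped between groups. The related phosphatase gene Lpin2 had a lower region (chr17:71562141-71562340), with 2.72, 6.00 and 7.10 in PL libraries, against 16.8, 25.4 and 15.6 in control libraries. Further along Lpin2, a region at chr17:71596001-71596240 was higher, with 26.3, 27.0 and 19.5 in PL libraries, against 15.8, 10.7 and 9.80 in control libraries. Dgat2, which completes triacylglycerol, had a higher region (chr7:106314341-106314540), with 16.3, 13.5 and 17.7 in PL libraries, against 7.36, 5.34 and 4.03 in control libraries.

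Cpt1a, the carnitine transferase that admits fatty acids to mitochondria for oxidation, had 3 regions, and all were listed only in this comparison. At chr19:3336881-3337180 the counts were 27.2, 28.5 and 23.1 in PL libraries, against 11.6, 8.02 and 12.1 in control libraries. The other higher region (chr19:3351061-3351340) had a mean of 63.2 ± 9.50 in PL and 31.9 ± 2.69 in control, and the lower one between them (chr19:3345821-3346040) 7.11 ± 4.23 in PL and 21.8 ± 2.18 in control (SD, n = 3 each). The Cpt1a groups did not overlap in any of the 3. The authors' deposited table gives an adjusted p of 0.00262, 0.00291 and 0.0110 in the order given.

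**Figure D2:**
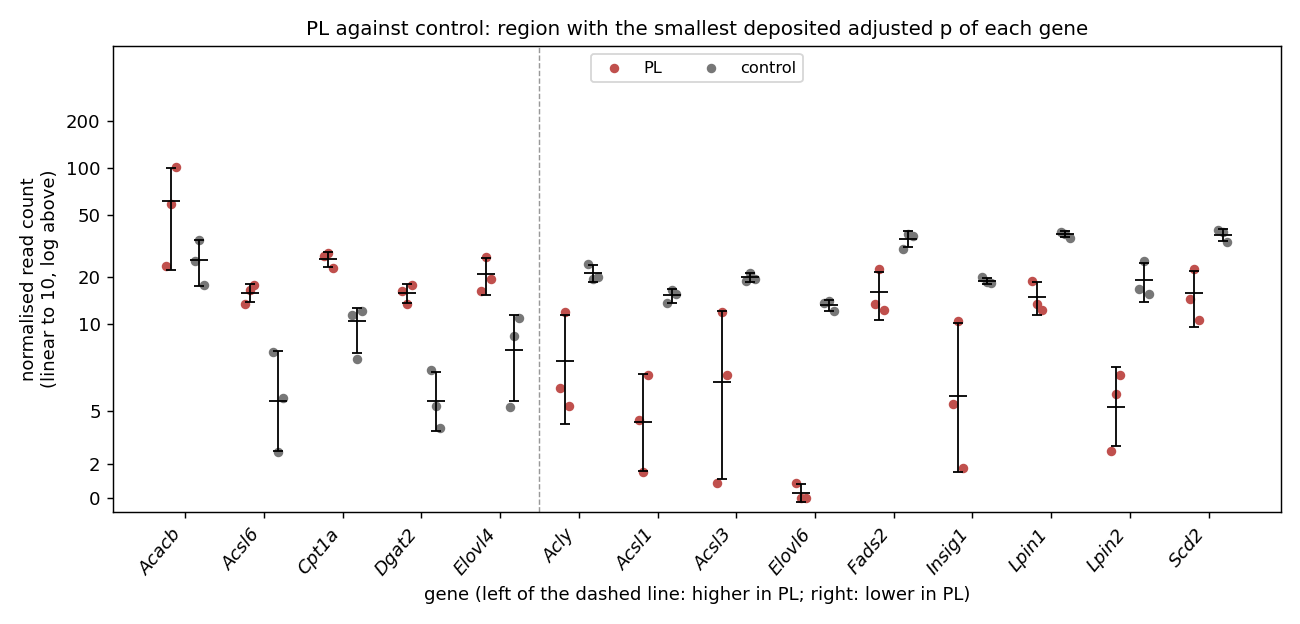
Normalised read count (vertical axis, linear to 10 and logarithmic above) of every PL and control library in the region with the smallest deposited adjusted p of each of 14 genes; points are libraries, black bars the mean and SD of 3. The groups are apart in every gene but Acacb, where the lowest PL value, 23.6, lies below the highest control value, 34.7, and Elovl6 is at or near 0 in PL.

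Leaving out any 1 library turned the direction of none of the 17 PL regions chosen by the naming rule for which a value could be computed. Where the groups were apart this was fixed in advance, so only the Acacb gene body region could have turned. Its log2 ratio stayed between 0.66 and 1.62. With 3 libraries against 3, an exact permutation test of a single region cannot go below 0.1, and the regions were listed because they differed in these libraries, so only the deposited p-values are given.

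After the central lesion, 50 regions in 20 of the 33 members were listed against control (60.6%, where 38.3% of protein-coding genes had one). Of these, 43 were higher and 7 lower in DCL, a share of 86.0% higher against 82.9% of all listed regions. Fads3 carried only a lower region, Acly, Elovl6, Insig2, Por and Srebf2 both kinds, and the other 14 genes only higher ones. The groups did not overlap in 18 of the 43 higher regions, or 41.9%, against 46.5% of all higher regions, and in 7 of the 7 lower ones, against 99.7% of all lower regions. Without the DCL library listed first, 15 of the 43 higher regions kept a ratio of 1.5-fold or more (34.9%, against 51.4% of all higher regions), 5 turned to lower, and the log2 ratio had a median of 0.36 and not 1.13. All 7 lower regions stayed past 1.5-fold without it. The same share over all listed lower regions was not computed, so this count only describes the members. The part of that library's scaling in the higher regions was not tested.

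**Figure D3:**
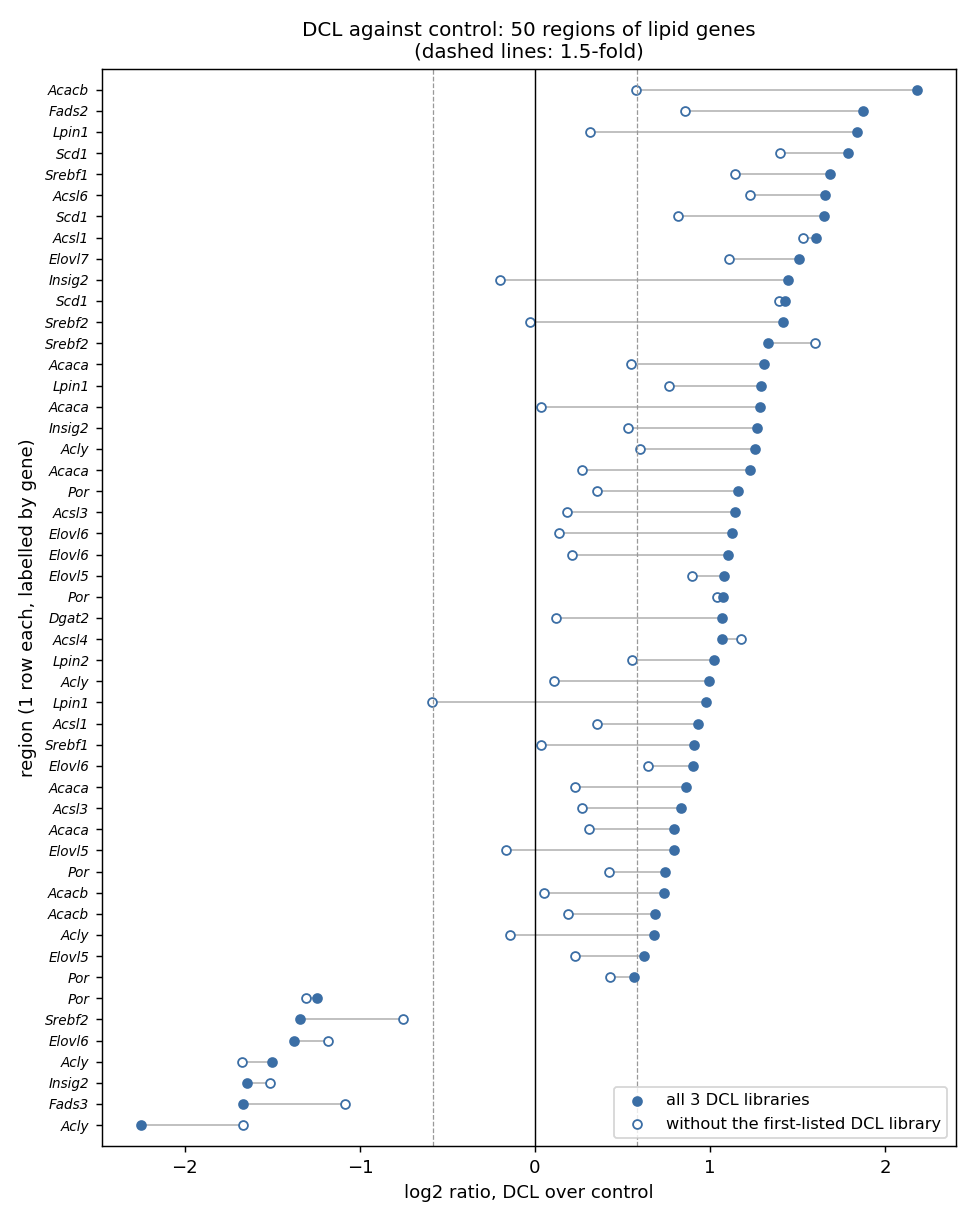
Log2 ratio of the DCL mean over the control mean (horizontal axis) of the 50 regions of lipid genes, with all 3 DCL libraries (filled) and without the DCL library listed first (open); each row is a region and dashed lines mark 1.5-fold. The 7 lower regions stay below the line, and 15 of the 43 higher ones stay above it. Of all listed higher regions 51.4% did so, and the share of all lower ones was not computed.

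In the acetyl-CoA and malonyl-CoA group, 11 regions were higher and 2 lower, and the groups were apart in 2 of the 11 and in both lower ones. Of all listed regions 82.9% were higher, and 46.5% of those and 99.7% of the lower ones were apart. Acly held the 2 lower regions. At chr11:100353881-100354100 the counts were 9.41, 4.48 and 9.21 in DCL libraries, against 20.5, 19.8 and 25.1 in control libraries. At chr11:100360841-100361060 they were 0, 5.97 and 4.61 in DCL libraries, against 18.5, 14.2 and 17.6 in control libraries. Between them lay 2 higher Acly regions whose groups overlapped, led by the first library. At chr11:100355821-100356160 the counts were 141, 62.7 and 40.8 in DCL libraries, against 28.3, 42.1 and 32.1 in control libraries. Acaca, which makes the malonyl-CoA used for synthesis, had 5 higher regions, such as 75.3, 29.9 and 19.1 in DCL libraries, against 20.5, 17.97 and 11.8 in control libraries, at chr11:84083841-84084080. None of the 5 kept 1.5-fold without the first library, where 51.4% of all higher regions did. Acacb had 3 higher regions, of which that at chr5:114622901-114623140 held 179, 41.8 and 8.55 in DCL libraries, against 15.6, 21.1 and 13.9 in control libraries, with DCL libraries on both sides of the control range.

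Among the elongases, Elovl7 had 1 region whose groups were apart (chr13:109012581-109012880), with 37.6, 22.4 and 15.8 in DCL libraries, against 11.7, 7.44 and 7.48 in control libraries. Elovl5, which lengthens polyunsaturated chains, had 3 higher regions. The one with the smallest deposited p (chr9:77784741-77785140) held 226, 58.2 and 59.9 in DCL libraries, against 74.1, 64.5 and 59.8 in control libraries, so that only the first DCL library lay above the control range. The one at chr9:77797001-77797300 held 65.9, 62.7 and 30.9 in DCL libraries, against 23.4, 24.8 and 27.2 in control libraries, with no overlap. Elovl6 had 3 higher regions and a lower one (chr3:129270441-129270680), the lower with 6.27, 13.4 and 6.58 in DCL libraries, against 20.5, 24.2 and 23.5 in control libraries.

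Scd1, the main stearoyl-CoA desaturase, had 3 higher regions in its gene body. All 3 kept 1.5-fold without the first library, where 51.4% of all higher regions did. At chr19:44478161-44478380 the counts were 50.2, 38.8 and 13.2 in DCL libraries, against 7.80, 10.5 and 11.2 in control libraries. At chr19:44474641-44474840 they were 22.0, 28.4 and 12.5 in DCL libraries, against 7.80, 8.06 and 7.48 in control libraries. These 2 regions did not overlap between groups, with log2 ratios of 1.79 and 1.43. Fads2 had a higher region at 34693 bp from its start (chr19:10141201-10141400), with 50.2, 13.4 and 11.2 in DCL libraries, against 7.80, 6.20 and 6.41 in control libraries. Fads3, a related desaturase that acts on sphingoid bases, had a lower region (chr19:10133821-10134020), with 0, 11.9 and 12.5 in DCL libraries, against 22.4, 29.1 and 26.2 in control libraries.

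All 6 regions in the acyl-CoA synthetases were higher after DCL, where 82.9% of all listed regions were higher. Of the 6, 3 were without overlap, against 46.5% of all higher regions. Acsl4, which prefers arachidonate, held 25.1, 22.4 and 41.5 in DCL libraries, against 16.6, 13.0 and 12.8 in control libraries (chrX:138812161-138812440). The first library did not lead here, and the log2 ratio was 1.18 without it and 1.07 with it. Acsl1 held 22.0, 25.4 and 12.5 in DCL libraries, against 3.90, 9.92 and 5.88 in control libraries at chr8:47620641-47620840. A second Acsl1 region (chr8:47619001-47619280) had an adjusted p of 0.115 in the authors' deposited table. The 2 Acsl3 regions overlapped between groups, and at chr1:78672621-78673000 the counts were 151, 46.3 and 32.2 in DCL libraries, against 23.4, 40.3 and 40.1 in control libraries.

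Among the sterol sensors, Srebf1, which encodes the SREBP that favours fatty acid synthesis, had 2 higher regions, 2236 and 2986 bp inside the gene, which the tables count as promoter. At chr11:60031761-60031980 the counts were 34.5, 17.9 and 11.2 in DCL libraries, against 7.80, 5.58 and 6.41 in control libraries, with no overlap. At chr11:60031021-60031220 they were 75.3, 23.9 and 19.1 in DCL libraries, against 25.3, 20.4 and 17.1 in control libraries, and the groups overlapped. Srebf2, whose product favours cholesterol synthesis, had 2 higher and 1 lower region. Its lower region (chr15:81998301-81998580) held 0, 31.4 and 30.3 in DCL libraries, against 53.6, 53.9 and 48.6 in control libraries. Its higher region with the smallest deposited p (chr15:81987081-81987380) held 138, 22.4 and 22.4 in DCL libraries, against 24.4, 21.1 and 23.0 in control libraries, where both other DCL libraries lay within the control range. Insig2, the second retention protein, had a lower region 1756 bp inside the start of one transcript (chr1:123227281-123227540), with 6.27, 8.96 and 7.90 in DCL libraries, against 23.4, 21.7 and 27.2 in control libraries. At 2275 bp inside the start of another transcript (chr1:123221821-123222140), the first library was likewise the only one of Insig2 above the control range, with 125, 20.9 and 13.2 in DCL libraries, against 22.4, 18.6 and 17.6 in control libraries.

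In glycerolipid synthesis, 5 regions were higher and the groups were apart in 1 of them, where 46.5% of all higher regions were apart. That 1 was a Lpin1 region (chr12:16548101-16548320) with 28.2, 11.9 and 12.5 in DCL libraries, against 8.77, 3.72 and 9.08 in control libraries. At chr12:16583581-16583880 Lpin1 held 166, 34.3 and 15.8 in DCL libraries, against 19.5, 22.3 and 18.7 in control libraries. The Lpin2 region (chr17:71583341-71583760) held 135, 79.1 and 46.1 in DCL libraries, against 33.1, 48.3 and 46.5 in control libraries. The Dgat2 region (chr7:106307141-106307340) held 59.6, 14.9 and 16.5 in DCL libraries, against 16.6, 11.8 and 15.0 in control libraries. The first DCL library was the highest in all 4 of these. It was also the highest in the remaining region, in Lpin1 (chr12:16576161-16576360). The counts there were 65.9, 5.97 and 13.2 in DCL libraries, against 16.6, 14.9 and 11.8 in control libraries. The log2 ratio of that region was 0.98, or -0.59 without the first DCL library.

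Por, the reductase that passes electrons from NADPH to cytochrome P450 enzymes and to squalene monooxygenase, had the member region with the smallest p after DCL. This gene body region (chr5:136177881-136178280) was lower, with 25.1, 23.9 and 20.4 normalised counts in DCL libraries, against 55.6, 52.1 and 56.6 in control libraries. Its means were 23.1 ± 2.44 in DCL and 54.7 ± 2.39 in control (SD, n = 3 each), and the authors' deposited table gives an adjusted p of 7.92e-05. The 4 other Por regions were higher and none overlapped between groups, where 46.5% of all higher regions were apart. The one farthest from the start, at 44425 bp (chr5:136209321-136209560), held 43.9, 47.8 and 34.2 in DCL libraries, against 21.4, 19.2 and 19.2 in control libraries, with a log2 ratio of 1.07, or 1.04 if the first library is left out. The one 2605 bp before the start (chr5:136162301-136162520) held 103, 67.2 and 51.3 in DCL libraries, against 48.7, 45.9 and 37.9 in control libraries. At chr5:136173681-136174020 the adjusted p in the authors' deposited table was 0.15, although the table lists the region. Cpt1a had no region after DCL.

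Places in Acsl6, Acacb and Acly were listed in both lesion comparisons, whose values are set side by side because they share the control libraries. The Acsl6 region at chr11:54168761-54168960 was higher in both and apart in both, with 15.4, 17.99 and 17.7 in PL libraries, against 5.26, 8.68 and 5.19 in control libraries of that table. In the other table the same 200 bp held 28.2, 11.9 and 15.8 in DCL libraries, against 4.87, 8.06 and 4.81 in control libraries. The Acacb gene body place was higher in both with overlap in both. The Acly place at 30 kb from the start was lower after PL, as given above, while after DCL the slightly longer region (chr11:100358761-100359140) held 75.3, 23.9 and 21.7 in DCL libraries, against 29.2, 22.3 and 24.0 in control libraries. Only the first DCL library lay above the control range there, and the adjusted p in the authors' deposited table was 0.0563.

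**Figure D4:**
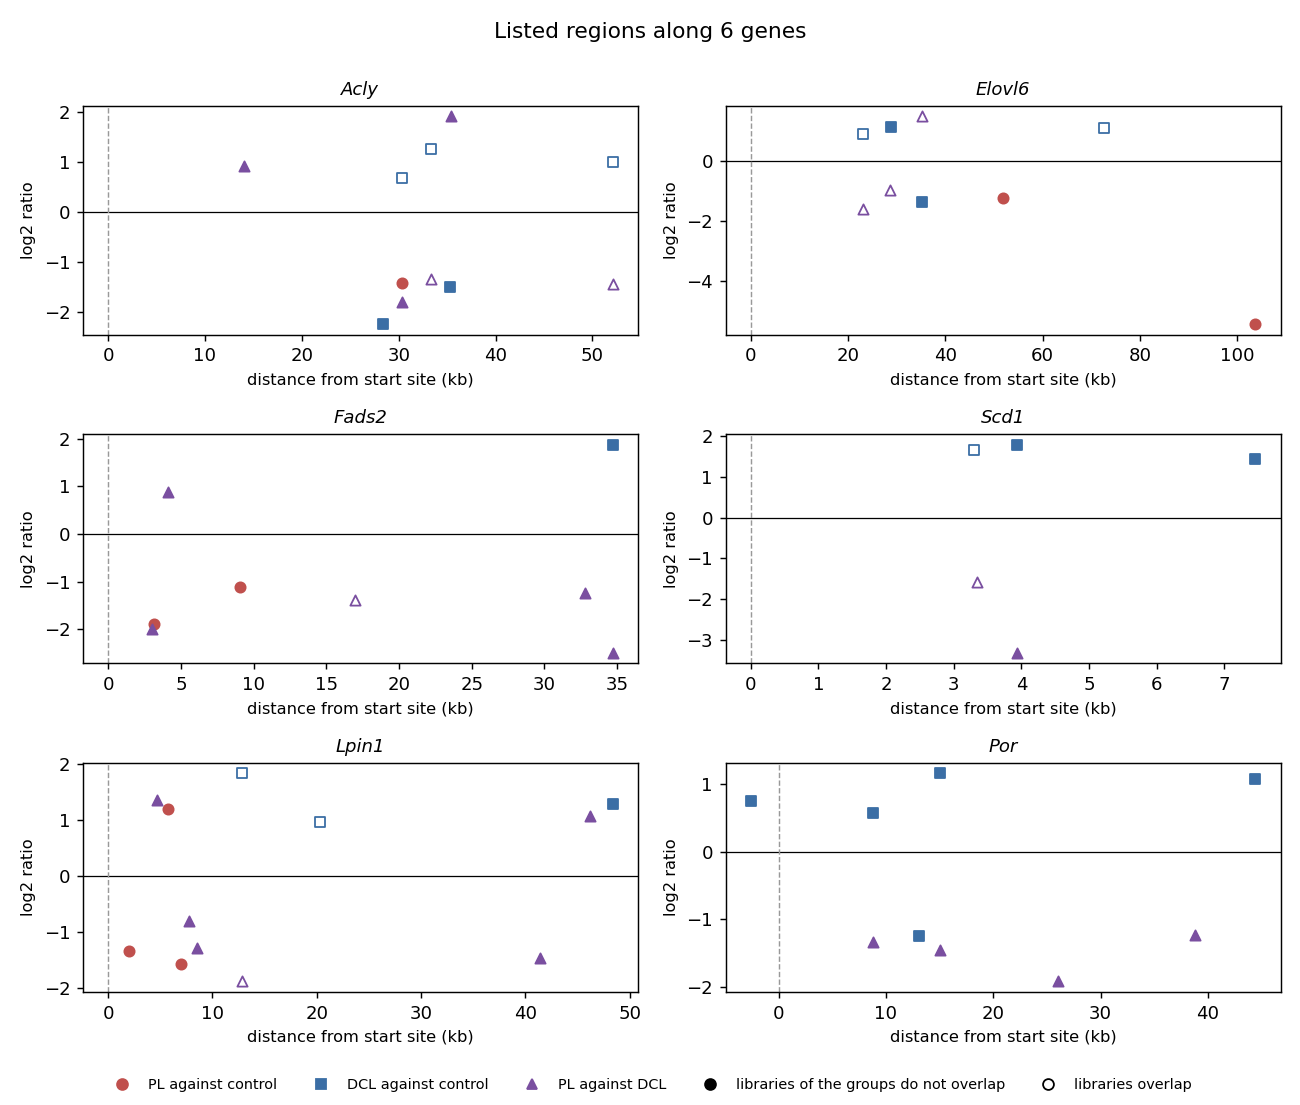
Log2 ratio (vertical axis, first-named group over second) of every listed region of 6 genes against its distance from the start site in kb, with circles for PL against control, squares for DCL against control and triangles for PL against DCL; filled symbols are regions whose libraries do not overlap. In Lpin1 the PL regions alternate in sign near the start, and in Por 4 DCL regions lie above 0 and 1, at 13065 bp, below it.

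Set directly against the central lesion, PL had 52 regions in 20 of the 33 members (60.6%, where 30.7% of protein-coding genes had one), 13 higher and 39 lower. The share of higher regions was 25%, against 24.9% of all listed regions. Dgat2 and Fads3 carried only higher regions, Acsl1, Acsl3, Acsl4, Elovl7, Insig2, Lpin2, Lss, Por, Scd1 and Srebf1 only lower ones, and Acaca, Acacb, Acly, Elovl5, Elovl6, Fads2, Lpin1 and Srebf2 both. The groups did not overlap in 12 of the 13 higher regions, against 98.5% of all higher regions, and in 26 of the 39 lower ones (66.7%), against 59.0% of all lower regions. Without the first DCL library, 25 of the 39 lower regions kept 1.5-fold (64.1%, against 70.4% of all lower regions), 2 turned to higher, and the log2 ratio had a median of -0.87 and not -1.42.

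Regions lower in PL without overlap included those of Scd1, Fads2, Acsl4 and Por. Scd1 at chr19:44478161-44478380 held 5.58, 2.06 and 0 in PL libraries, against 37.5, 28.8 and 9.75 in DCL libraries, giving a log2 ratio of -3.31, or -2.92 with the first DCL library left out. Fads2 at chr19:10172821-10173140 held 7.44, 1.03 and 6.13 in PL libraries, against 21.1, 17.7 and 19.02 in DCL libraries, which were close to each other. Acsl4 at chrX:138799921-138800200 held 2.48, 7.20 and 2.45 in PL libraries, against 16.4, 23.3 and 9.75 in DCL libraries. All 4 Por regions were lower in PL without overlap, led by chr5:136173661-136173860 with 13.0, 20.6 and 20.8 in PL libraries, against 65.6, 44.3 and 27.3 in DCL libraries. The authors' deposited table gives an adjusted p of 0.00026 for Scd1 and for Fads2, 0.00243 for Acsl4 and 0.000284 for Por.

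Lower regions were also apart in genes with single or few listings. Lss, the cyclase that forms lanosterol and the only member of sterol synthesis with a region in any table, held 6.20, 11.3 and 9.81 in PL libraries, against 14.1, 22.2 and 21.5 in DCL libraries (chr10:75999541-75999780). Elovl7 held 15.5, 10.3 and 12.3 in PL libraries, against 21.1, 24.4 and 31.7 in DCL libraries (chr13:109064981-109065180). Lpin2 held 8.06, 4.11 and 4.91 in PL libraries, against 14.1, 13.3 and 19.99 in DCL libraries (chr17:71544881-71545100). In these 3 regions the log2 ratio without the first DCL library was -1.26, -1.14 and -1.55. Srebf2, led by the first library, at chr15:81987121-81987380 held 14.3, 9.26 and 11.04 in PL libraries, against 98.3, 16.6 and 15.6 in DCL libraries. Insig2 at chr1:123221921-123222120 held 6.20, 8.23 and 15.9 in PL libraries, against 89.0, 14.4 and 8.29 in DCL libraries, where the groups overlapped. The groups also overlapped in lower regions of Acaca, Acacb, Elovl6 and Lpin1, where the first DCL library was again the highest. Acacb at chr5:114623601-114623880 held 20.45, 37.0 and 22.1 in PL libraries, against 131, 37.7 and 21.5 in DCL libraries. Its log2 ratio was -1.26, or -0.16 without the first DCL library.

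All 13 higher regions stayed past 1.5-fold without the first DCL library. The same share over all listed higher regions was not computed, so this count only describes the members. Fads3, 378 bp before its start (chr19:10115561-10115760, just upstream of the promoter printed above), held 11.2, 15.4 and 17.2 in PL libraries, against 0, 5.54 and 4.39 in DCL libraries. Its log2 ratio was 2.14 with all libraries and 1.55 without the first DCL library. Dgat2 was higher at 2 regions, and at chr7:106309961-106310180 it held 17.3, 14.4 and 13.5 in PL libraries, against 0, 3.32 and 6.83 in DCL libraries. Lpin1 at chr12:16591761-16592000 held 36.6, 32.9 and 27.0 in PL libraries, against 14.1, 7.75 and 15.6 in DCL libraries, with an adjusted p of 0.00026 in the authors' deposited table. Acly at chr11:100353861-100354060 held 15.5, 13.4 and 19.6 in PL libraries, against 2.34, 2.22 and 8.29 in DCL libraries. The higher Elovl6 region (chr3:129270481-129270720) was the exception whose groups overlapped, with 13.0, 40.1 and 35.6 in PL libraries, against 9.36, 13.3 and 8.78 in DCL libraries.

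**Figure D5:**
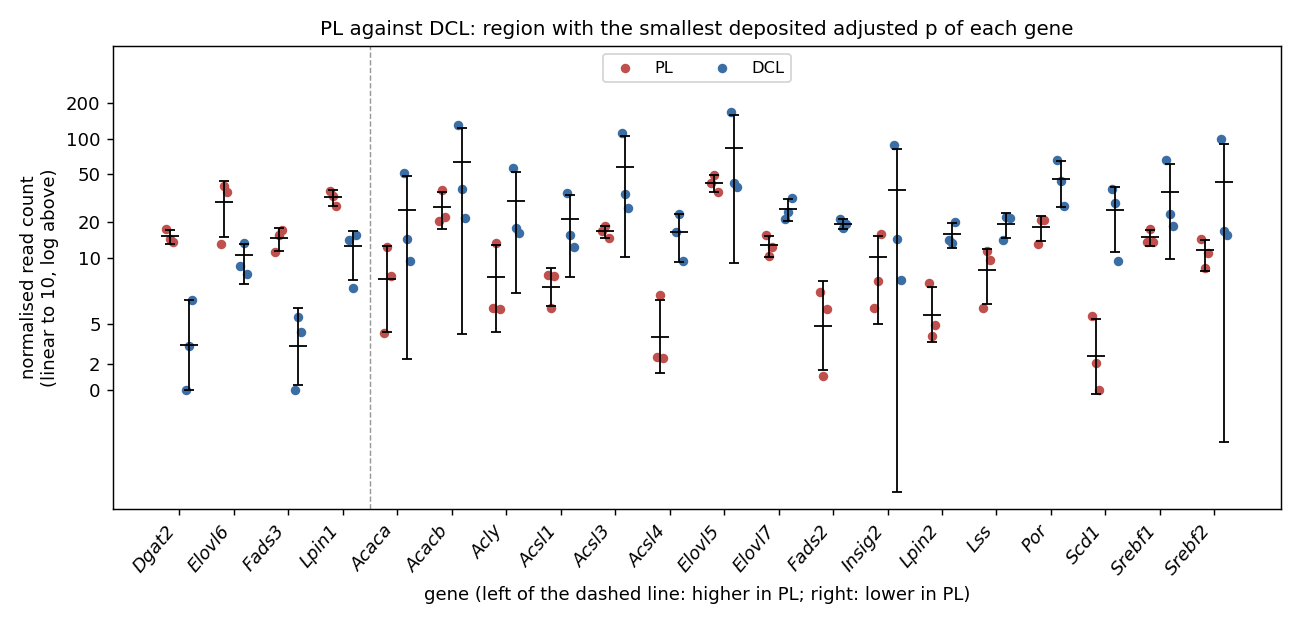
Normalised read count (vertical axis, linear to 10 and logarithmic above) of every PL and DCL library in the region with the smallest deposited adjusted p of each of 20 genes; points are libraries, black bars the mean and SD of 3. In genes such as Srebf2 a single DCL value, 98.3, sits far above the other two, while in Fads2, Lpin2 and Lss the DCL values lie close together.

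Some places were listed both between PL and DCL and between DCL and control, and since these tables share the DCL libraries their values are only set side by side. At the Scd1 place the DCL values were 50.2, 38.8 and 13.2 beside control values of 7.80, 10.5 and 11.2, and in the other table PL values were 5.58, 2.06 and 0 beside DCL values of 37.5, 28.8 and 9.75. At places in Fads2 and Acly, PL was lower than control in one table and lower than DCL in another. At the Fads2 place the PL libraries held 9.07, 4.50 and 1.77 against 19.99, 18.7 and 17.9 in control libraries, and in the table with DCL 7.44, 1.03 and 6.13 against 21.1, 17.7 and 19.02 in DCL libraries. At the Acly place PL held 6.20, 13.4 and 6.13 against 56.2, 17.7 and 16.1 in DCL libraries, with a log2 ratio of -1.81, or -0.98 without the first DCL library. Both comparisons share the PL libraries.

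Regions of opposite sign lay close together in several member genes. Among pairs of neighbouring regions of a gene less than 5000 bp apart, 2 of 3 member pairs were of opposite sign after PL, against 39.8% of all such pairs. After DCL it was 4 of 11, against 22.8% of all pairs, and for PL against DCL 5 of 13, against 29.0%. The Por pair after DCL is an example, where the lower region lay 1620 bp from a higher one and 3860 bp from another. With so few member pairs these shares only describe the genes.

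A list of 52 other genes of the same pathways was also chosen with earlier results of these data known. Of these, 9 had a region after PL (17.3%, below the 20.2% of protein-coding genes), 5 of them only higher, 1 only lower and 3 both. After DCL 30 had one (57.7%, against 38.3% of protein-coding genes), 23 only higher, 3 only lower and 4 both. Between PL and DCL 24 had one (46.2%, against 30.7%), 6 only higher in PL, 15 only lower and 3 both. The regions of these genes with the smallest deposited p after PL were in Me1, the malic enzyme that yields NADPH, and in Mvk, mevalonate kinase. Me1 at chr9:86566661-86567080 held 18.1, 13.5 and 23.1 in PL libraries, against 60.0, 48.8 and 46.1 in control libraries. Mvk at chr5:114908321-114908620 held 59.8, 81.0 and 62.1 in PL libraries, against 37.9, 36.7 and 32.8 in control libraries. Both were apart between groups, in opposite directions.

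Cell type markers of the ganglion also had listed regions. Of all protein-coding genes, 20.2% had a region after PL, 38.3% after DCL and 30.7% between PL and DCL. Of 10 sensory neuron markers, 1 had a region after PL, 2 after DCL and 0 between PL and DCL. Of 10 markers of satellite glia and Schwann cells, 2, 5 and 4 had one, of 8 immune markers 0, 2 and 1, and of 8 vascular and fibroblast markers 3, 5 and 3, in the same order. Between PL and DCL every listed marker, 4 glial, 3 vascular or fibroblast and 1 immune, carried only regions lower in PL, in a table where 24.9% of all regions were higher. The part of cell makeup in the lipid regions was not tested.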

How the data were processed

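DNA enriched for 5-hmC was sequenced from 9 libraries, 3 per group. Per the submitters' processing notes the tools were MACS2 2.1.1, SAMtools 0.1.19 and Bowtie2 2.2.0 and the build mm9, without their roles; the program that called the regions is not given in the sources used here. Per the file headers and values, each count cell holds 3 normalised read counts, 1 per library, with no library name, and the deposited signal average of a group is the mean of its 3 values. The log2 fold change deposited is that of these averages, and the p-value and adjusted p-value are the authors' own, by a test not given in the sources used here. Every listed region had a window p-value below 0.0001. The sign of each region was taken from the deposited averages.

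The tables hold only regions selected for a difference, so no count model was fitted, no further test was made and no correction over the gene list is given. Means, SDs, log2 ratios of means and overlap of the groups were computed with python 3.11.15, numpy 2.4.6, pandas 2.3.3 and matplotlib 3.10.9. Reads were recovered from the steps of low values, all of which came out whole within 0.1 of a step. The reading step was checked on simulated data. Regions of 2 tables shared a place where they overlapped by at least 1 bp. For each member and comparison, the naming rule picked the region with the smallest deposited adjusted p, any promoter region and any region shared between tables. It picked 17 regions for PL against control, all given above, 35 for DCL against control and 33 for PL against DCL. Of the regions picked in the comparisons with DCL, only some have their counts given. Further regions were picked after their values were seen. Gene lengths and promoters came from RefSeq on GRCm38.p6, and no coordinate was converted; the starts of the 2 printed promoters keep the distance to neighbouring genes that the tables give them. The members and the lists of other genes were chosen with earlier results of these data known. Alternatives were a pseudocount of 1, group medians, reads without the authors' scaling, stricter deposited p thresholds, gene body regions alone and each library left out. Libraries in a group are pools of animals, so the spread is that between pools. Inputs were not analysed here.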

Additional observations from a re-analysis of the deposited data

How the results depend on the processing

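Results are log2 ratios of named regions and counts of regions. For PL against control no named region changed direction under any alternative that gave a value. Where the groups were apart, only reads without the authors' scaling could have changed it. The Elovl6 region at 103696 bp gave no value without the PL library listed first or as a ratio of medians. The other PL libraries are at 0 there. At a deposited adjusted p under 0.01, 6 higher and 9 lower PL regions were left of 11 and 14. Leaving out each library in turn, the higher DCL regions past 1.5-fold numbered 15 to 43, and the regions lower in PL than in DCL 25 to 39, the low ends without the first DCL library. The log2 ratio then ranged, for DCL against control, from -0.14 to 0.98 at Acly 100358761, -0.16 to 1.11 at Elovl5 77784741, -0.20 to 1.90 at Insig2 123221821 and -0.027 to 1.81 at Srebf2 81987081, and, for PL against DCL, from -1.31 to 0.054 at Elovl5 77784801 and -1.33 to 0.089 at Elovl6 129263821. As a ratio of medians it was -0.0090 at that Acly region, -0.11 at Elovl5 and -0.036 at Srebf2 for DCL against control. For PL against DCL it was 0.0014 at Elovl5. Lpin1 16576161, which the naming rule did not pick, also turned for DCL against control. Its log2 ratio was 0.98 with all libraries, -0.59 without the first DCL library and -0.18 as a ratio of medians.

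Requiring groups that do not overlap, an alternative added after seeing the data, left 18 of the 43 higher DCL regions. Reads without the authors' scaling leave differences of depth in place. In such reads all 14 lower PL regions passed 1.5-fold, and all 33 named regions of PL against DCL kept their direction. With the scaling, 42 higher DCL regions passed 1.5-fold, all but the Por region at chr5:136173681-136174020, at 1.48-fold. Without it, 2 of 11 higher regions in PL and 1 of 42 in DCL did. There 19 named DCL regions turned to lower, with log2 ratios of -0.23 (Acaca), -0.55 (Acacb), -0.42, -0.075 and -0.60 (Acly), -0.26 (Acsl1), -0.36 and -0.36 (Acsl3), -0.25 (Dgat2), -0.53 (Elovl5), -0.28 and -0.28 (Elovl6), -0.22 (Insig2), -0.26 (Lpin2), -0.32, -0.46 and -0.14 (Por), -0.40 (Srebf1) and -0.13 (Srebf2). The same shares over all listed regions were not computed in reads without scaling, so these counts only describe the members. A pseudocount of 1 was added to both group means, which cannot change a direction, so only the size of the ratios could move. No paired analysis was possible because the libraries in a count cell carry no replicate number. Total depth is unknown, and regions with few reads, as in Elovl6 after PL, have wide counting error.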

Other observations

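The 8 members with no listed region were shorter than the 25 with one, at a median of 18.6 kb against 58.1 kb in GRCm38.p6. In the 43 member regions listed as higher after DCL, the median number of reads recovered was 23, 20 and 33 in the 3 DCL libraries, against 21, 33 and 34 in the 3 control libraries, before any scaling. In the normalised counts of the same regions the medians were 72.1, 29.9 and 21.7 in DCL libraries, against 20.5, 20.4 and 18.2 in control libraries. The 7 lower regions had medians of 6.27, 11.9 and 9.21 in DCL libraries, against 22.4, 24.2 and 26.2 in control libraries.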
